A study of Mus musculus with 6 samples.

Results

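The genes described here are 32 genes of the unfolded protein response and the integrated stress response, taken by symbol from gene count tables of mouse liver that hold 24982 genes. All 32 were found in the tables of all 6 libraries, and 31 passed the filter on low counts. Phgdh did not pass it. By role, 4 members are sensors and their direct factor, 14 are chaperones and folding enzymes, 4 belong to degradation of proteins from the endoplasmic reticulum (ER), and 10 belong to the ATF4 and amino acid response. The libraries are polyA RNA of whole liver from male C57BL/6NJ mice, 3 from a chow group and 3 from a group given a high fat diet and sugar water (high fat high sugar, HFHS), with 54 weeks on either diet. No transgene, deletion or drug is named for either group, and the sources used here do not give the age at the start. The series is presented as a model of steatohepatitis that progresses to liver cancer, and whether a sampled piece held tumour is not stated.

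Proteins that fold badly in the ER are sensed by 3 membrane proteins, IRE1 (Ern1), PERK (Eif2ak3) and ATF6. IRE1 splices the Xbp1 mRNA and ATF6 is cut to free a transcription factor, and both raise ER chaperones and degradation factors. PERK and its sister kinases phosphorylate the translation factor eIF2, which lowers translation in general and favours that of ATF4, a factor for amino acid synthesis and stress genes. Hepatocytes secrete large amounts of plasma protein and have abundant ER. Gene counts do not measure Xbp1 splicing, ATF6 cleavage, eIF2 phosphorylation or translation of Atf4 mRNA.

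Promoter letters were searched for known motifs of these responses, and 13 members held a match. The members were picked as known genes of the same responses, so their share of matches is not independent of that choice. Windows from 250 bases before to 50 bases after the annotated start (RefSeq, GRCm38.p6) were held for 29 members, in 31 windows, and were searched on both strands. The ER stress element (ERSE), which ATF6 and XBP1 use together with the factor NF-Y, was searched as CCAAT and CCACG with any bases at the 9 positions between them. It was found in 8 of 31 member windows, against 0.119% of 32851 windows of all genes. The 8 genes are Hspa5, Hsp90b1, Calr, Canx, Pdia6, Dnajc3 and Creld2, all of the chaperone group, and Syvn1 of the degradation group. The shorter ERSE-II, searched as ATTGG and CCACG with any 1 base between them, was found in Herpud1 and Dnajb11 and in 0.0365% of all windows. The C/EBP-ATF response element (CARE), which ATF4 uses, was searched as TGATGNAAN and found in Asns, Chac1, Trib3 and Herpud1, and in 3.95% of all windows. A further motif of XBP1 and ATF6, TGACGTGG, was found in 0 member windows and in 0.676% of all. The ERSE and ERSE-II letters share CCACG with each other but no match of one overlapped a match of another. The matches are printed to show where the element lies, and their common letters are those the search required. Capitals mark the fixed letters, and CGTGG with ATTGG is the same element on the other strand. Each line is written 5′ to 3′ on the strand of its gene, which is minus for Canx, Hsp90b1 and Calr and plus for the rest.
Hspa5 (chr2:34772025-34772043): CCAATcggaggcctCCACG
Pdia6 (chr12:17266491-17266509): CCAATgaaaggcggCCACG
Dnajc3 (chr14:118937827-118937845): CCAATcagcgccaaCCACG
Canx (chr11:50325800-50325818): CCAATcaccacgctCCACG
Hsp90b1 (chr10:86705638-86705656): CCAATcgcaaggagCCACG
Hsp90b1, nearer the start (chr10:86705533-86705551): CGTGGtgaggcacgATTGG
Calr (chr8:84847075-84847093): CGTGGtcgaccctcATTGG
Creld2 (chr15:88819520-88819538): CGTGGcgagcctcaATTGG
Syvn1 (chr19:6046532-6046550): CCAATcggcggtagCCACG

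Longer stretches are given for Hspa5, a chaperone gene with an ERSE that showed no call, for Herpud1 and Asns, the members that fell, and for Chac1, an ATF4 target whose level varied widely between libraries of one diet. Each ends 1 base before the annotated start and runs in the direction of transcription. Capitals mark the fixed letters of the ERSE in Hspa5, of the CARE and then the ERSE-II in Herpud1, and of the CARE in Asns and Chac1.
Hspa5 (chr2:34771940-34772089, plus strand): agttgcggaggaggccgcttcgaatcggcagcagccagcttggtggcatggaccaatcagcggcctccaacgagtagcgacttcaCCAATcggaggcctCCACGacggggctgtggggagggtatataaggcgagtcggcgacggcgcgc
Herpud1 (chr8:94386279-94386428, plus strand): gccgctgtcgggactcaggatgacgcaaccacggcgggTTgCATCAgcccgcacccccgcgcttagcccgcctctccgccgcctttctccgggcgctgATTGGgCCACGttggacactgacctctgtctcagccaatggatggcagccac
Asns (chr6:7693210-7693309, minus strand): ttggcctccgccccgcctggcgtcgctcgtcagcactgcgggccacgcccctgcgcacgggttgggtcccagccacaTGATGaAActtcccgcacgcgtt
Chac1 (chr2:119351022-119351241, plus strand): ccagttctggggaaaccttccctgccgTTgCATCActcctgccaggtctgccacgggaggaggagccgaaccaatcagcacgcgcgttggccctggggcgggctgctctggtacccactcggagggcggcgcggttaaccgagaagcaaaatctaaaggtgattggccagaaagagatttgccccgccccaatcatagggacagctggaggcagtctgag

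**Figure D1:**
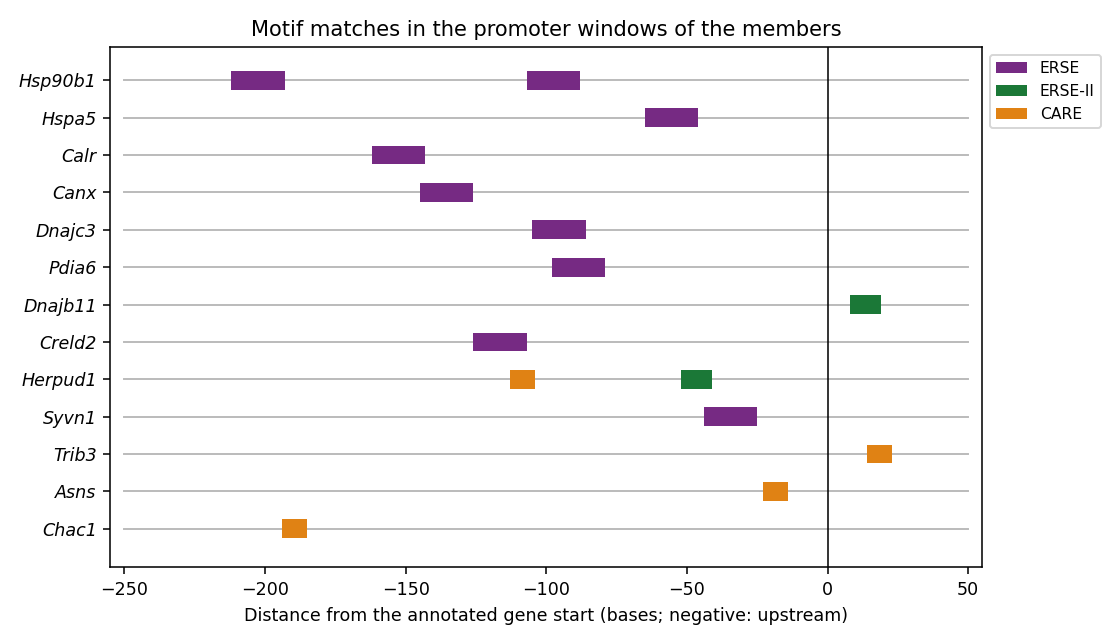
Positions of motif matches in the promoter windows of the 13 members with a match, in bases from the annotated gene start (x axis), with 1 line per gene and a coloured block per match. The 9 ERSE matches lie between 212 and 26 bases before the start, and the CARE and ERSE-II of Herpud1 lie in the same window.

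Outside the members, 11 tested genes held an ERSE in their window, of which 1 was higher and 0 lower, with a median log2 fold change of 0.46, after the high fat high sugar diet by edgeR's test (all edgeR results here are at a Benjamini-Hochberg adjusted p under 0.05). Of 278 other tested genes with a CARE, 42 were higher and 9 lower, with a median log2 fold change of 0.01. Over all 12949 tested genes 11.0% were higher and 3.61% lower, with a median of -0.02. A match is a description of letters and not a measured binding site.

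Gene counts ranged from 16565335 to 20585366 per library. Hepatocyte markers had the highest level of any marker list. Their summed level was 105077 to 129949 CPM (counts relative to the scaled library total) in chow and 43157 to 97438 CPM after the high fat high sugar diet. Of the 10 markers 1 passed the test, as lower. All 10 had a negative log2 fold change, with a median of -0.71, against 6775 of all 12949 tested genes and a median of -0.02. Macrophage markers were higher in 10 of 10, stellate cell and myofibroblast markers in 7 of 8, bile duct markers in 6 of 7 and endothelial markers in 5 of 6. Of 8 tested plasma cell markers, cells whose ER is also large, 1 was higher, and Tnfrsf17 was at 0 counts in every library. Of 12 pancreatic acinar markers 6 were at 0 counts in every library, among them Cpa1, Ctrb1 and Pnlip, and Cela1, the one tested, was lower. High fat high sugar replicate 2 had the lowest summed hepatocyte level, 43157 CPM, and the highest summed macrophage level, 2041 CPM, against 1016 and 905 CPM in replicates 1 and 3 and 263 to 370 CPM in chow. In whole liver, fewer cells of a type and less RNA per cell cannot be told apart.

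Of 31 tested members 3 passed the test for diet, which is 9.68%, against 14.6% of all tested genes. Psat1 rose, and Asns and Herpud1 fell. At an unadjusted p under 0.05 there were 5 members, with Syvn1 and Atf5 added. The median log2 fold change of the 31 was -0.01. The libraries of the diets did not overlap for 6 members, 2 higher and 4 lower. Of all tested genes 39.5% did not overlap, 21.5% higher and 18.0% lower. Scaling by library size only moved the median of all tested genes by 0.27 on the log2 scale and changed the sign of 14 members, none of them called, so smaller directions hold relative to the other genes. The calls rest on few libraries. Without chow replicate 2 or 3 edgeR called 0 members, with 5 and 3 at an unadjusted p under 0.05. Without chow replicate 3 it called 4 genes higher and 2 lower in the whole table, against 1428 and 468 with all libraries.

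**Figure D2:**
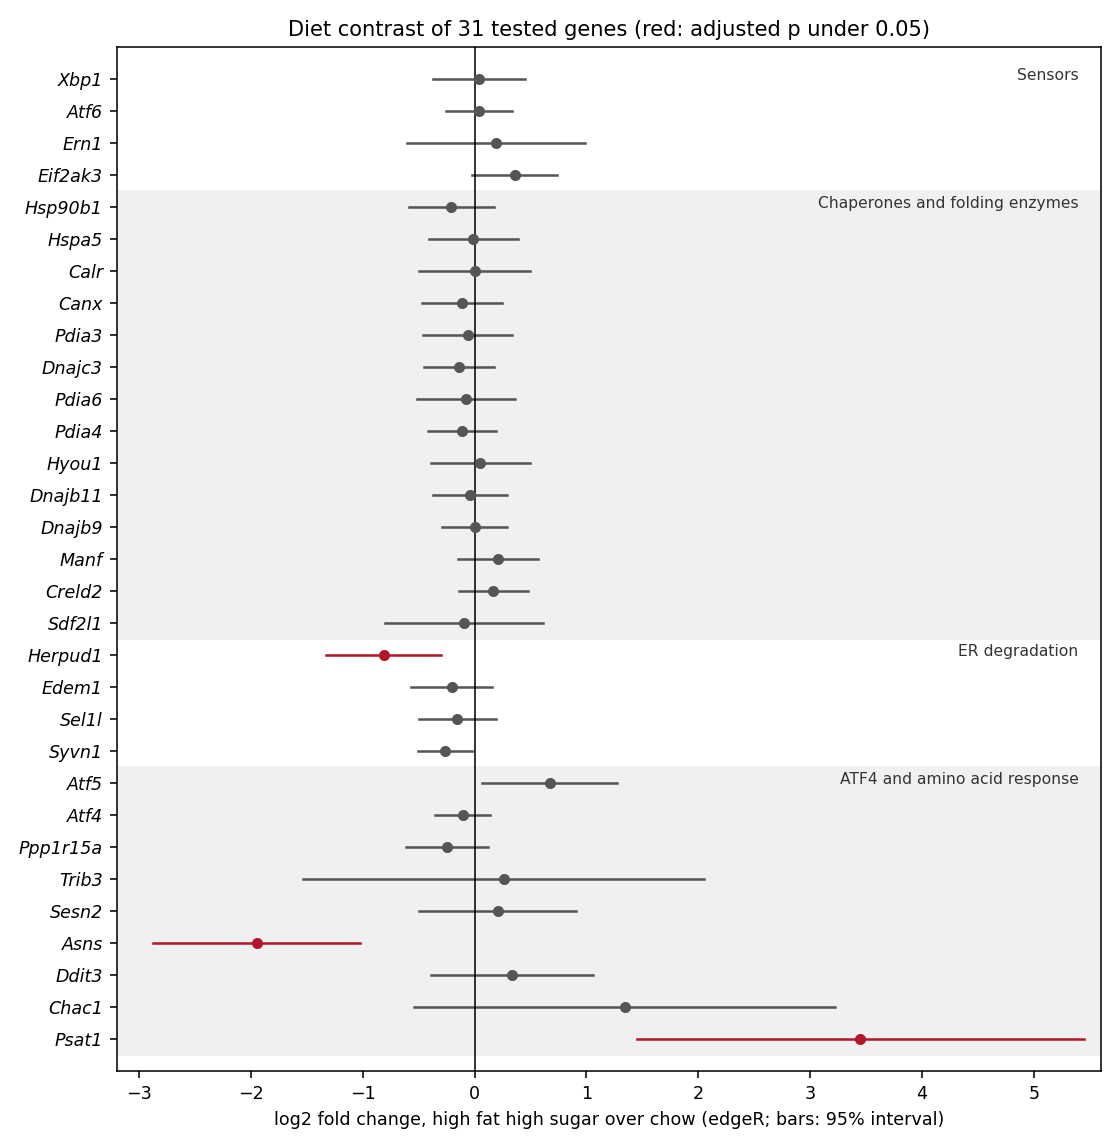
Log2 fold change of high fat high sugar over chow (x axis) for each of the 31 tested members, with its 95% interval from edgeR as a bar and red for an adjusted p under 0.05. Chaperones lie within 0.21 of 0, and Psat1 and Asns lie at 3.45 and -1.95.

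Among the sensors, 0 of 4 passed the test by edgeR, DESeq2 or limma-voom, and 0 had an unadjusted p under 0.05 by edgeR. Eif2ak3, which encodes PERK, was at 14.6, 16.9 and 17.5 CPM in chow replicates 1, 2 and 3 and at 18.4, 25.6 and 18.7 CPM in HFHS replicates 1, 2 and 3. All 3 high fat high sugar libraries thus lay above all 3 of chow, by a small margin except in replicate 2. Its log2 fold change was 0.36 ± 0.16 (SE), and edgeR gave an adjusted p of 0.173. Ern1, which encodes IRE1, was at 25.2, 55.1 and 30.8 CPM in chow and at 56.0, 40.3 and 30.5 CPM after the diet. It varied about as much within a diet as between them, with a highest library 2.22 times the lowest and a 95% interval of the log2 fold change from -0.61 to 0.99. Atf6 was at 95.7 ± 6.57 CPM in chow and 98.4 ± 12.1 CPM after the diet (SD, n = 3). Xbp1, the factor that IRE1 activates, was at 238, 248 and 173 CPM in chow and 225, 205 and 248 CPM after the diet. The groups overlapped for Atf6 and Xbp1, whose log2 fold changes were both 0.04, with 95% intervals of -0.26 to 0.34 and -0.37 to 0.45.

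Chaperones and folding enzymes of the ER had 0 of 14 members past the threshold by edgeR, DESeq2 or limma-voom, and 0 at an unadjusted p under 0.05 by edgeR. Hspa5 (chromosome 2, 34772090 to 34776529) encodes BiP, the main ER Hsp70 chaperone, which also holds the sensors inactive. It was at 597, 698 and 533 CPM in chow and at 645, 580.2 and 585 CPM in HFHS replicates 1, 2 and 3. The libraries of the second diet lay inside the chow range, with a log2 fold change of -0.01 and a 95% interval of -0.41 to 0.38. Hsp90b1, the ER Hsp90 chaperone (chromosome 10, 86690841 to 86705444), was at 908, 969 and 831 CPM in chow and 807, 735 and 805 CPM after the diet. It shares 14.7% of its exon bases with a gene on the opposite strand. Hsp90b1 was the only chaperone whose groups did not overlap, with the diet group lower, and it did not pass, at -0.21 ± 0.16 on the log2 fold change scale (SE; adjusted p of 0.422 in edgeR). Calr and Canx encode the lectin chaperones calreticulin and calnexin. Calr was at 582, 764 and 459 CPM in chow and 598, 622 and 589 CPM after the diet, with equal means and a much narrower range after the diet. Canx was at 407 ± 41.9 and 377 ± 24.8 CPM (SD, n = 3).

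The protein disulfide isomerases Pdia3, Pdia4 and Pdia6, which form and exchange disulfide bonds, had log2 fold changes of -0.06, -0.11 and -0.07. Pdia6 was at 183, 232 and 140.1 CPM in chow and 179.7, 176 and 171 CPM after the diet, so that its chow libraries lay on either side of the diet libraries. The BiP cochaperones Dnajb9, Dnajb11 and Dnajc3 had log2 fold changes of 0.00, -0.04 and -0.14. The nucleotide exchange factor Hyou1 was at 89.4 ± 21.9 and 92.7 ± 13.0 CPM (SD, n = 3). Among genes that respond most sharply to ER stress in cultured cells, Creld2 was at 16.7 ± 0.796 and 18.8 ± 2.54 CPM and Sdf2l1 at 12.4 ± 5.27 and 11.6 ± 2.40 CPM (SD, n = 3). Manf, a secreted ER stress factor, was at 45.7, 62.6 and 42.3 CPM in chow and at 58.6, 58.0 and 57.5 CPM after the diet. Its diet libraries were close to each other and all under chow replicate 2. All 14 intervals of the log2 fold change lay between -0.80 and 0.62, the widest being that of Sdf2l1, so each lay within 1 log2 unit, or a 2-fold change, of 0. Of all tested genes 65.9% had an interval within 1 log2 unit of 0.

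The chaperones varied together among chow libraries. Chow replicate 2 was the highest chow library for 14 of 14 chaperones, against 33.8% of all tested genes, and chow replicate 3 the lowest for 11 of 14, against 31.7%. Chow replicate 2 was the highest of all 6 libraries for 12 of 14, against 16.8% of all tested genes. The SD was smaller after the high fat high sugar diet than in chow for 12 of 14 chaperones, against 33.7% of all tested genes. The median coefficient of variation was 15.2% in chow and 5.64% after the diet for chaperones, and 11.3% and 16.0% for all tested genes. These are descriptions of 3 libraries per diet. The chaperone median of the log2 fold change was -0.05 with all libraries (0.21 with library size only), 0.10 without chow replicate 2 and -0.16 without chow replicate 3. In the translocation and secretion genes of the ER, which are not members, chow replicate 2 was also the highest chow library for 19 of 25. In ER folding factors beyond the members it was so for 10 of 24, and chow replicate 1 for 11. Chow replicate 2 was the highest chow library for 15 of 25 further degradation genes. Outside the ER, it was so for 9 of 12 tRNA synthetases and 1 of 11 genes of the eIF2 kinases and their control.

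**Figure D3:**
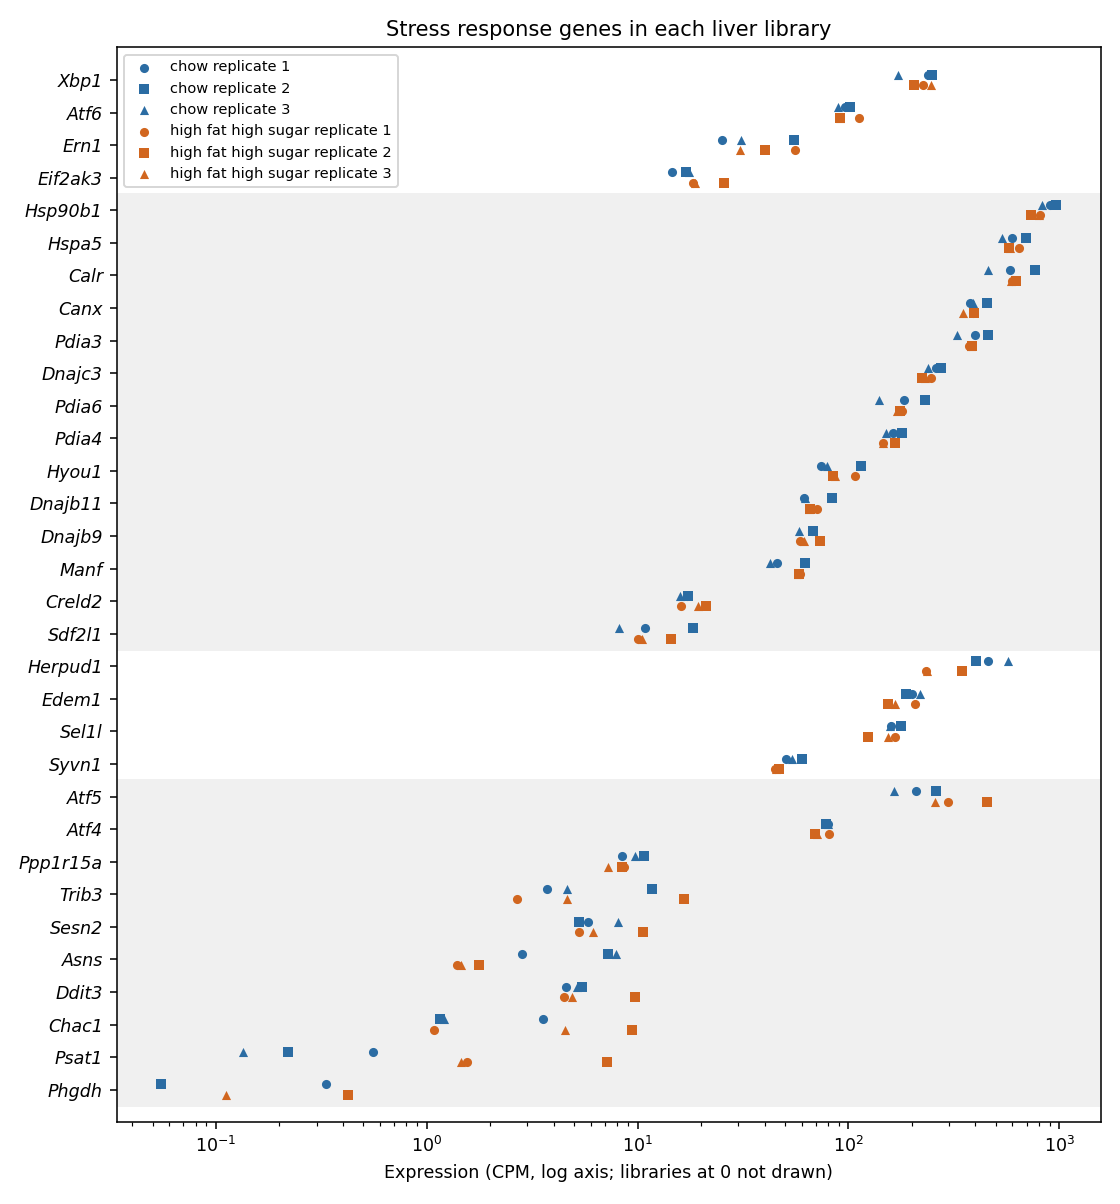
CPM on a log axis (x axis) of the 32 members in each of the 6 libraries, blue for chow and orange for high fat high sugar, with 1 marker shape per replicate. Points of the diets overlap for most chaperones, and Herpud1, Asns and Psat1 show separate groups. The groups are also separate, by smaller margins, for Eif2ak3, Hsp90b1 and Syvn1, which did not pass the test.

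Degradation of misfolded ER proteins was the group with all 4 members below 0 on the log2 fold change scale. Of all 12949 tested genes 6775 were below 0. The median of the group was -0.24 (0.03 with library size only), and 1 of 4 passed. With library size only Herpud1 stayed below 0, at -0.51, but Edem1, Sel1l and Syvn1 were at 0.05, 0.09 and 0.00. Herpud1 (chromosome 8, 94386429 to 94395371) encodes a membrane protein that organises the ER ubiquitin ligase complex, and its promoter holds both an ERSE-II and a CARE, printed above. It was at 459.8, 401 and 569 CPM in chow and at 234, 345 and 235 CPM in HFHS replicates 1, 2 and 3. Every diet library lay below every chow library, and replicate 2 was nearest to chow. The mean fell to 56.9% of chow, with a log2 fold change of -0.81 ± 0.22 (SE), and edgeR gave an adjusted p of 0.0479. The adjusted p lay just under the threshold, and over the alternatives it ranged from 0.00304 with DESeq2 to 0.2098 with scaling by library size only. Herpud1 did not pass when any one of the chow libraries was left out, without HFHS replicate 1 or 3, with upper-quartile scaling or with library size only. Its log2 fold change stayed between -1.02 and -0.51 over all alternatives.

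Syvn1, the ubiquitin ligase HRD1 that Herpud1 works with, was at 50.8, 59.9 and 54.1 CPM in chow and 45.1, 46.6 and 45.5 CPM after the diet. The groups did not overlap, and the log2 fold change of -0.27 ± 0.10 (SE) did not pass, at an adjusted p of 0.118 in edgeR. With library size only the Syvn1 value was 0.00. Sel1l, the scaffold of the same ligase, was at 159, 178 and 158 CPM in chow and 166, 123 and 154 CPM after the diet, and Edem1, a lectin that hands over glycoproteins for degradation, was at 202 ± 15.0 and 175 ± 27.9 CPM (SD, n = 3). Both overlapped between diets, and both were lowest in HFHS replicate 2. Per kilobase of exon, Herpud1 was at rank 3 of the 32 members in chow, at 244 ± 43.8 CPM per kilobase, behind Hsp90b1 at 319.6 ± 24.5 and Calr at 276 ± 70.4 (SD, n = 3). After the diet it was at rank 5, with 139 ± 32.7 CPM per kilobase, and Atf5 was at rank 3 with 168 ± 51.9. In chow the spread of Calr overlapped those of Hsp90b1 and Herpud1, so its place between them is uncertain. After the diet Hspa5 was at 161 ± 9.61 and Pdia3 at 137 ± 2.20 CPM per kilobase (SD, n = 3). Both lay inside the spreads of Atf5 and Herpud1, so the places of Atf5 and Herpud1 among ranks 3 to 6 are uncertain.

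Of 9 tested ATF4 and amino acid response genes 1 was higher and 1 lower, or 22.2%, against 14.6% of all tested genes, and the other members of the group did not pass. Atf4 itself was at 79.7, 78.6 and 80.3 CPM in chow and at 81.1, 69.5 and 71.0 CPM after the diet. Its mRNA level overlapped between the diets, with a 95% interval of the log2 fold change from -0.35 to 0.14. Asns (chromosome 6, 7675165 to 7693209) encodes asparagine synthetase, a classical ATF4 target, and has a CARE 23 bases before its start. It was at 2.84, 7.26 and 7.88 CPM in chow and at 1.39, 1.77 and 1.45 CPM in HFHS replicates 1, 2 and 3. All diet libraries lay below all chow libraries, and chow replicate 1 was nearest to them. The mean fell to 25.7% of chow, with a log2 fold change of -1.95 ± 0.40 (SE), and edgeR gave an adjusted p of 0.0211. Asns passed under every scaling, with DESeq2 and with no filter, and not with limma-voom (0.0586), without chow replicate 2 (0.0694) or 3 (0.0896) or without HFHS replicate 1 (0.0559). Those 4 adjusted p-values lie within a range of 0.000121 to 0.0896 over the alternatives. The log2 fold change stayed between -2.30 and -1.67.

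Psat1, at low levels, was the member of the group that rose. It encodes phosphoserine aminotransferase of serine synthesis (chromosome 19, 15905123 to 15925059). Psat1 had 10, 4 and 2 counts in chow and 30, 187 and 26 counts in HFHS replicates 1, 2 and 3, or 0.556, 0.220 and 0.135 CPM against 1.55, 7.20 and 1.45 CPM. All diet libraries were above all chow libraries, and replicate 2 was 4.79 times the mean of the other two of its diet. The log2 fold change was 3.45 ± 0.85 (SE), and edgeR gave an adjusted p of 0.0380. It was 2.26 without HFHS replicate 2, where it passed, and 4.19 without chow replicate 1, where it did not. Psat1 also did not pass without chow replicate 2 or 3 or with limma-voom. The size of the rise is uncertain because the chow level rests on so few counts. Phgdh, the enzyme before it in the pathway, had 6, 1 and 0 counts in chow and 0, 11 and 2 after the diet, was not tested, and was highest in the same library as Psat1. Psph, the last enzyme and no member, was at 4.66 and 5.59 CPM on average and did not pass.

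The stress factors Atf5, Ddit3, Trib3, Chac1 and Sesn2 did not pass, and each was highest in HFHS replicate 2. With Psat1 this made 6 of 9 tested members of the group highest in that library, against 29.2% of all tested genes. Atf5, a factor whose translation is favoured when eIF2 is phosphorylated, was at 208, 259 and 164 CPM in chow and at 296, 453 and 257 CPM after the diet. The groups overlapped by a small margin, since chow replicate 2 lay above HFHS replicate 3. The log2 fold change of Atf5 was 0.67 ± 0.26 (SE), and the adjusted p in edgeR was 0.120, with 0.0576 to 0.333 over the alternatives. Per kilobase of exon Atf5 lay far above the rest of its group, at 106 ± 23.9 CPM per kilobase in chow, against 46.1 ± 0.514 for Atf4 and 5.69 ± 0.511 for Ddit3 (SD, n = 3).

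Ddit3, which encodes the cell death factor CHOP (chromosome 10, 127290793 to 127296291), was at 4.56, 5.44 and 5.19 CPM in chow and at 4.49, 9.70 and 4.86 CPM after the diet. High fat high sugar replicates 1 and 3 lay within or below the chow range, and replicate 2 was 2.07 times their mean. Ddit3 shares 7.64% of its exon bases with Mars on the opposite strand. The Ddit3 log2 fold change was 0.34 with all libraries and -0.11 without replicate 2. Trib3, a pseudokinase induced by ATF4 and CHOP, was at 3.73, 11.7 and 4.65 CPM in chow and 2.69, 16.6 and 4.64 CPM after the diet. Its highest chow library was replicate 2, and without HFHS replicate 2 its log2 fold change went from 0.26 to -0.87. Chac1, a glutathione-degrading enzyme induced by ATF4, was at 3.56, 1.15 and 1.21 CPM in chow and at 1.08, 9.39 and 4.53 CPM after the diet. The lowest Chac1 value of all 6 was in HFHS replicate 1 and the highest in replicate 2, and the log2 fold change of 1.34 became 0.49 without replicate 2 and 2.08 without chow replicate 1. Sesn2, a stress-induced inhibitor of mTORC1 signalling, was at 6.40 ± 1.48 and 7.35 ± 2.87 CPM (SD, n = 3), with 10.6 CPM in replicate 2. Ppp1r15a, which encodes the GADD34 subunit that directs the removal of phosphate from eIF2, was at 9.65 ± 1.14 and 8.12 ± 0.746 CPM (SD, n = 3) and was not highest in that library.

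The median log2 ratio of the 9 tested members to the average of chow was -0.17, 0.94 and -0.06 in the HFHS libraries in order of replicate number, while that of the chaperones was -0.06, -0.05 and -0.08. Replicate 2 is also the library with the highest macrophage and lowest hepatocyte marker levels given above. The part of cell composition in these values was not tested. Without replicate 2 the group's median log2 fold change went from 0.26 to -0.11, and Asns and Psat1 still passed.

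**Figure D4:**
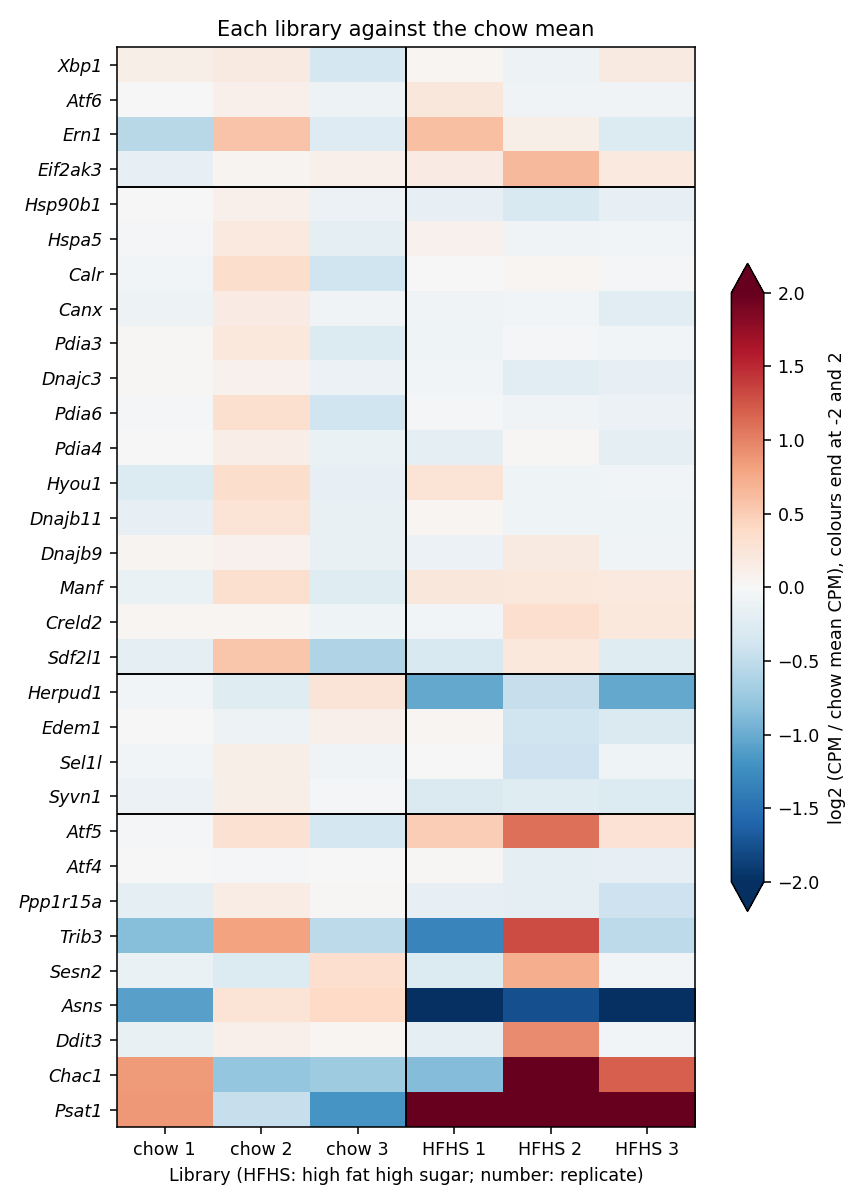
Log2 ratio of each library (columns) to the chow mean for the 31 tested members (rows), red above and blue below the chow mean, with colours ending at -2 and 2. Chaperone rows are redder in chow replicate 2, and the ATF4 group is reddest in HFHS replicate 2 in the rows of Atf5, Ddit3, Trib3, Chac1 and Sesn2. For Psat1 the ratios of HFHS replicates 1, 2 and 3 (2.35, 4.57 and 2.26) all lie past the end of the colours.

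Other genes of the pathway were described from lists named for their roles, by counts beside the background of 14.6%. Of 151 tested genes in 9 such lists, 9 were higher and 5 lower by edgeR, or 9.27%. DESeq2 called 28 and limma-voom 8 of them. Without Serpinh1, which is given with the heat shock genes below, ER folding factors beyond the members had 0 of 24 higher and 2 lower. These were Pdia5, a disulfide isomerase (-0.59 ± 0.13 on the log2 fold change scale, SE), and Sil1, an exchange factor for BiP (-0.38 ± 0.10), while Fkbp2 (-0.37 ± 0.11) and Dnajc10 (0.51 ± 0.18) did not pass. Sil1 lost its call in 10 alternatives, among them each library left out, and was at -0.12 with library size only. Pdia5 lost its call in 4, among them library size only, where it was at -0.33. Degradation genes had 1 of 25 lower, the ubiquitin ligase Rnf5 (-0.60 ± 0.16, with its call lost in 8 alternatives and -0.36 with library size only). Of the 25, 19 had a negative value, against 6775 of all 12949 tested genes, and with library size only 8 of the 25 did. Their median was -0.16, and 0.09 with library size only. Aup1 (-0.37), Ube2j2 (-0.66) and Derl1 (0.16) did not pass. Translocation and secretion genes had 0 of 25 past the threshold by edgeR, with 2 at an unadjusted p under 0.05, the signal peptidase genes Spcs3 (-0.33) and Spcs2 (-0.31). Sec62 was at -0.24 and Ddost at 0.13. The eIF2 kinases and their control had 0 of 11, with Eif2ak1 (-0.32) and Eif2b1 (-0.26) at an unadjusted p under 0.05, and Eif2b5 at -0.20 and Eif2ak2 at 0.19. Further sensors and CREB3 family factors had 0 of 9, with Creb3l1 (1.59 ± 0.50) at an unadjusted p under 0.05, and Creb3l3 at -0.33 and Map3k5 at -0.18. The tRNA synthetases, many of them ATF4 targets, had 0 of 12, with Wars (0.37 ± 0.13) at an unadjusted p under 0.05, and Aars at -0.31 and Mars at -0.20. Mitochondrial chaperones and proteases had 0 of 9 and a median of -0.25 (0.01 with library size only), with 4 at an unadjusted p under 0.05, among them Clpp (-0.43), Lonp1 (-0.36) and Trap1 (-0.43).

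ATF4-linked genes outside the members had 6 of 24 higher and 2 lower, or 33.3%, against 14.6% of all tested genes (11.0% higher and 3.61% lower). Again both directions were present. Fgf21, a liver hormone, had 25 counts in chow and 698 after the diet and rose by 4.44 ± 0.36 on the log2 scale (SE), and edgeR gave an adjusted p of 0.00536. It passed under every alternative run. Stc2, a secreted glycoprotein, had 1 count in chow and 41 after the diet, or 33.1 times as much per scaled library (95% counting interval 5.61 to 1338). Without chow replicate 1, which held that count, Stc2 was at least 7.14-fold higher, with the floor set at 3 counts for the whole chow group. Atf3 (3.06), Nupr1 (2.53), Aldh18a1 (2.22) and Jdp2 also rose. Without HFHS replicate 2 Atf3 was 2.27 and Nupr1 1.54. The calls of Atf3, Nupr1, Aldh18a1 and Jdp2 were lost in 3, 4, 2 and 5 alternatives, in that order, and that of Stc2 in 2. Cth, which makes cysteine from cystathionine, fell by 1.87 on the log2 scale, and the amino acid transporter gene Slc38a2 fell by 0.64. Cth lost its call in 1 alternative and Slc38a2 in 5, among them library size only, where Slc38a2 was at -0.37. Of the 24 genes 16 were highest in HFHS replicate 2, against 29.2% of all tested genes. The cytosolic heat shock list also held Serpinh1, an ER chaperone for collagen and not a cytosolic protein. Against 11.0% of all tested genes, 25% of this list were higher, or 3 of 12. These were Serpinh1 (2.04 ± 0.27, SE), Hspb1 (1.26 ± 0.31) and Hsp90aa1 (0.58 ± 0.15). Their calls were lost in 1, 6 and 7 alternatives, in that order. Hspa1b, the classical heat-induced Hsp70, was at -0.32 ± 0.32 and did not pass. Of the 14 calls in the 9 lists 1 remained without chow replicate 3, that of Fgf21. The counts of remaining calls were 6 and 4 when chow replicate 1 or 2 was left out, and 9, 12 and 12 when HFHS replicate 1, 2 or 3 was. Serpinh1 belongs with collagen-making cells, whose summed markers were at 72.5 to 92.7 CPM in chow and 217 to 543 CPM after the diet, and the part of those cells in its value was not tested.

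**Figure D5:**
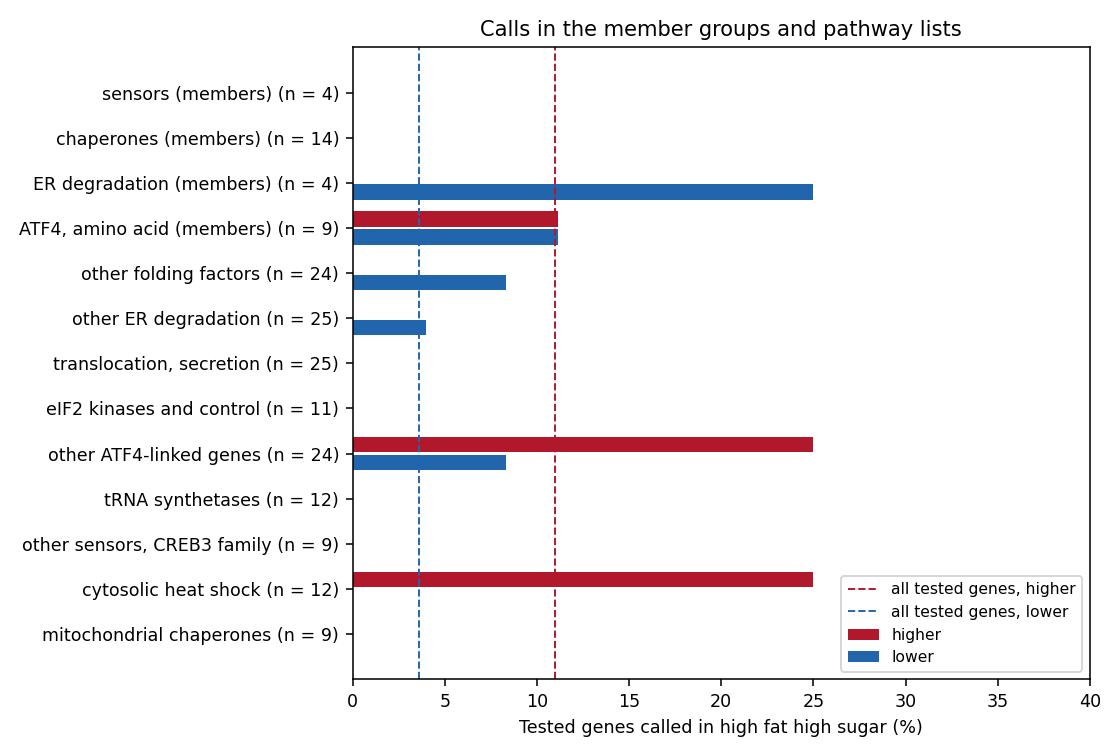
Share of tested genes called higher (red) or lower (blue) after the high fat high sugar diet (x axis, percent) in the 4 member groups and 9 pathway lists, with the number tested beside each name. Dashed lines mark 11.0% higher and 3.61% lower over all tested genes, and in the groups of 4 and 9 genes a single call makes a long bar.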

How the data were processed

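Liver polyA RNA of 6 samples was sequenced. The deposited values are counts of reads per gene symbol, 1 table per library, aligned with STAR to mm10 per the submitters' processing notes. For the counting program, its annotation and its strand setting, nothing is given in the sources used here. Rows for reads outside genes (7.74% to 10.6%) and for reads fitting several genes (0.615% to 0.862%) were left out. Of 24982 genes, 12949 passed filterByExpr (minimum count 10). TMM scaling and edgeR's quasi-likelihood F test (edgeR 4.0.16, limma 3.58.1, DESeq2 1.42.0, R 4.3.3) were applied to all of them, with Benjamini-Hochberg adjustment and a threshold of 0.05. CPM was computed here from the counts with TMM-scaled sizes. A standard error is the log2 fold change divided by the square root of F, and 3 counts are 0.115 to 0.202 CPM. Intervals on counts cover counting error only. The scripts were tested on simulated data.

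Samples were grouped by title. The labels name separate samples without naming animals, so p-values measure the spread between samples. The members, lists and tests were chosen with earlier results of these data known, and the motifs after the values were seen. Named genes are all members and, per list, the 3 smallest p and the smallest in the opposite direction; others were chosen after their values were seen. Exon lengths come from GENCODE M21 (GRCm38), and 10 members share 0.375% to 14.7% of exon bases with another gene in the tables. The largest such share is that of Hsp90b1, and Ddit3 shares 7.64% with Mars. Reads there may be split or lost. Promoter windows come from RefSeq GRCm38.p6. The windows' orientation was checked against GENCODE transcripts, in which the tested bases after the start were not found for Trib3, Pdia4 and Dnajc3. The CARE of Trib3 and the ERSE of Dnajc3 lie in such windows. Alternatives were other scalings, no filter, DESeq2, limma-voom, each library left out and the replicate number as a block.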

Additional observations from a re-analysis of the deposited data

How the results depend on the processing

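Calls for chaperones and sensors were 0 in both directions under every alternative run. Leaving out each library in turn gave 4 to 1664 genes higher and 2 to 772 lower in the whole table, 0 to 1 members higher and 0 to 2 lower, 0 to 1 degradation members lower, and 0 to 1 members of the ATF4 group in either direction. Scaling by library size alone (median shift of all genes 0.27, log2) gave 200 genes lower, 1 member lower and 0 degradation members lower; 90.6% of its calls were higher, against 75.3% with TMM. It put the member median at 0.25, and 14 of 31 members changed sign, none of them called. Upper-quartile scaling gave 1 member lower and 0 degradation members lower. DESeq2 gave 974 genes lower. With limma-voom 0 members were higher and 1 lower, and the ATF4 group had 0 higher and 0 lower. RLE scaling and no filter kept the 3 called members. The labels do not say that the replicate numbers pair the samples. Deviations of same-numbered samples from the mean of their diet correlated at -0.25, -0.17 and 0.03. With 3 libraries per diet such values cannot exclude pairing. The replicate block gave 282 genes lower, 0 members higher and 1 lower, 0 degradation members lower and 0 of the ATF4 group higher, with adjusted p-values in edgeR of 0.0916 for Herpud1 and 0.0562 for Psat1. Low counts limit Phgdh, which was not tested, and Psat1 and Stc2 in chow.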
